A study of Gallus gallus with 7 samples.

Results

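The 200 chicken genes with the most distal chromatin regions around them were described across 6 chromatin libraries and 1 RNA library of sorted vagal neural crest cells. A distal region was a placed region of the deposited chromatin table whose midpoint lay more than 1 kb from every transcription start site (TSS) and within 100 kb of the nearest. Each such region was assigned to the gene of its nearest TSS, and 2 genes were left out by the rule. Of 24881 genes in the gene table, 4757 held at least 1 of the 6474 assigned regions. The 200 genes held 819 of them, or 12.7%. The number of regions chose the genes, so that number is a description and was not tested.

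The 200 genes held between 3 and 20 regions each. A total of 46 held 5 or more, 73 held 4 and 81 held 3. The boundary fell within a tie, because 138 further genes also held 3 regions and were left outside by the order of gene identifiers, lowest first. The files do not pair the identifiers with gene symbols, and 0 of 24881 identifiers matched the reference gene table, so genes are given by position on galGal5 and no gene is given a name or a role. For the same reason the cells could not be checked against marker genes of the neural crest or of other cell types.

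The sox10 group had 2 pull-down libraries, the tfap2B group had 2, and the input group had 2. All 6 came from wild-type embryos of Hamburger and Hamilton stage 18 (HH18) that had been electroporated at HH8 with the reporter E2:citrine, and from citrine-positive cells sorted out of the dissected vagal region. The factors carried an Avi tag that the co-electroporated enzyme BirA biotinylates, and were pulled down on streptavidin beads without an antibody, so the libraries report the electroporated factor and not the embryo's own protein. The RNA library came from wild-type embryos at HH10, electroporated at HH4 with NC2:citrine and sorted in the same way. It differs from the chromatin libraries in stage and in reporter. Nothing in the labels ties the replicates to distinct embryos or pools. The p-values therefore cover the spread among these libraries alone, which may be technical.

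Vagal neural crest cells leave the hindbrain and give rise to most of the enteric nervous system and to part of the cardiac outflow tract. Sox10 is an HMG-box transcription factor that keeps crest cells multipotent and later directs glial and melanocyte fates, and tfap2B is a member of the AP-2 family that acts in crest specification and in sympathetic neurons. Both bind short DNA motifs, often in enhancers that lie in introns or between genes, away from the promoter they act on. Genes with wide non-coding surroundings can gather many such sites, and the nearest TSS is not always the gene a site acts on.

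The deposited chromatin values are whole reads multiplied by 1 constant per library, and are called scaled reads here. Reads in the regions totalled 2533921 and 1366132 for the sox10 replicates, 3498728 and 1405830 for the tfap2B replicates, and 7989029 and 13921317 for the inputs. A single read was worth 1.20 and 2.34 scaled reads in the sox10 replicates, 0.895 and 2.08 in those of tfap2B, and 0.695 and 0.363 in the inputs. No region was listed under 1 read in any library, and a listed value of 1 may therefore stand for 0 or 1. The RNA library had 28777461 counts in genes, and a count of 3 corresponded to 0.104 CPM (counts scaled to the library total). The sources used here do not give the libraries the regions were called on, so the levels against input may not be independent of a region being listed at all.

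The stretch of chromosome in which a region could be assigned to a gene, called its territory here, was wider for the 200 genes than for others. Its median was 80.3 kb, with a range of 7.35 to 198 kb, against 43.9 kb for the 4757 genes with a distal region and 24.1 kb for the 19108 placed genes. The genes had a median of 5 regions per 100 kb of territory, against 2.91 for the 4757 genes. The number of regions that chose the genes enters this density, so a higher value follows in part from the choice. Across the 4757 genes the number of regions and the territory had a Spearman correlation of 0.17. Both numbers come from the same annotation. When the 200 genes were chosen by regions per kb of territory instead, 65 of them (32.5%) were shared, so the list mixes genes in wide gaps with genes in dense clusters of regions.

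Within the territories, 500 of the 819 regions (61.1%) were intergenic, 229 (28%) intronic and 90 (11%) exonic, against 58.8%, 26.1% and 15.1% of all assigned distal regions. The regions lay a median of 17.3 kb from the TSS, against 9.84 kb for all assigned distal regions, and 44.8% against 51.7% lay upstream of it. Neighbouring regions of a gene were a median of 6.84 kb apart. The regions of a gene spanned a median of 32.4 kb, from 4.01 to 173 kb. A total of 107 genes had regions on both sides of their TSS, 41 only upstream and 52 only downstream. In 74 genes every region was intergenic, in 21 every region was intronic and in 1 every region was exonic.

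Some of the 200 genes lay together. A total of 26 were next to another of the 200 in TSS order, so their regions share a stretch of chromosome and are not independent of each other. Chromosome 1 held 30 of the genes, chromosome Z 27 and chromosome 2 20. The share on Z was 13.5%, against 9.04% of the 4757 genes. In addition, 13 of the 200 (6.5%) started in the first 500 kb of their chromosome, against 3.36% of the 4757.

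The mean over a gene's distal regions spread far more in the inputs than in the pull-downs. Medians over the 200 genes were 124 and 125 scaled reads for the sox10 replicates, 102 and 102 for those of tfap2B, and 113 and 158 for the inputs. From the 10th to the 90th percentile they ranged from 70.3 to 219 and from 72.5 to 257 in sox10, and from 55.8 to 193 and from 56.9 to 177 in tfap2B. In the inputs they ranged from 29.8 to 494 and from 23.6 to 379. On the log2 scale the SD over the 200 genes was 0.66 and 0.74 in the sox10 replicates and 0.78 and 0.69 in those of tfap2B, against 1.60 and 1.81 in the inputs. Genes called above and below input accordingly lay further apart in the inputs than in the pull-downs. The input enters each call, so this separation follows in part from the calls. The 43 genes called above input for sox10 had medians of 207 and 244 scaled reads in sox10 and 101 and 108 in tfap2B, against 36.6 and 27.0 in the inputs. The 49 called below had 107 and 99.4 in sox10 and 94.3 and 112 in tfap2B, against 395 and 331 in the inputs.

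**Figure D1:**
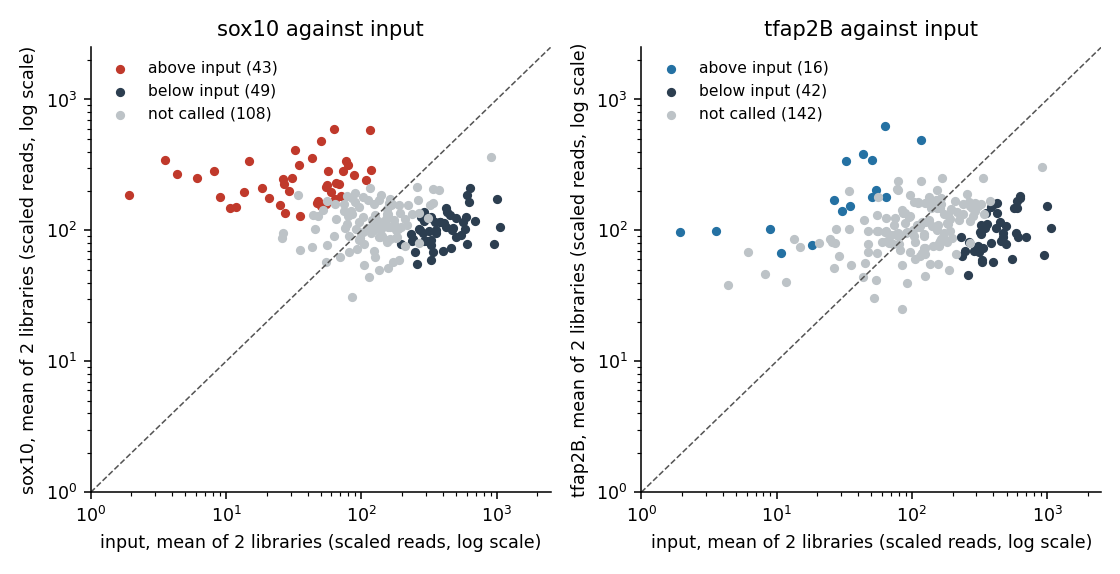
Mean scaled reads over each gene's distal regions in the 2 sox10 libraries (left panel, vertical axis) and the 2 tfap2B libraries (right panel, vertical axis), against the mean of the 2 inputs (horizontal axis), for the 200 genes on log scales. Each point is a gene, coloured by its call, and the dashed line marks equal values. The 43 genes called above input for sox10 and the 16 for tfap2B lie at low input values, and the 49 and 42 called below input lie at high ones. The input enters each call, so this follows in part from the calls.

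Against input, the sox10 pull-downs were higher over the distal regions of 43 of the 200 genes (21.5%) and lower over those of 49 (24.5%). Over all 4757 genes 23.8% were higher and 17.7% lower. Under the deposited scaling the share above input was thus close to the background and the share below was larger than it. Both shares depend on the tie at 3 regions. Of the 43 genes above, 24 were among the 81 taken at the tie, as were 7 of the 49 below. The 138 genes left outside at the tie had 16 above and 48 below. The limma test ran on log2(scaled reads + 1) with its trend option and was adjusted over the 4757 genes (Benjamini-Hochberg p under 0.05), and log2 differences are on that scale. The median log2 difference was -0.19 for the 200 genes and 0.09 for all 4757. The balance depended on the scaling of the libraries. Total reads gave 58 of the 200 genes above and 11 below input, with medians of 0.56 for the 200 and 0.84 for all genes. DESeq2 size factors gave 58 and 19, with medians of 0.29 and 0.58. Over all 4757 genes total reads put 29.5% above and 5.51% below input, and DESeq2 size factors 27.8% and 8.87%. The shares of the 200 genes were close to these, so the larger share below input did not hold under either. The median of the 200 genes lay below that of all genes under these 3 scalings. A scaling shifts the log2 differences of all genes by nearly the same amount, so this order could hardly change. With the median over a gene's regions in place of the mean, 51 genes were above and 42 below input, against 24.0% and 17.2% of all genes. The median of the 200 genes then turned to 0.26, above the 0.12 of all genes.

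The calls also depended on single libraries. Without sox10 replicate 1 there were 8 genes above and 10 below input, and without sox10 replicate 2 there were 5 and 8. Without tfap2B replicate 2 fewer genes were above input. The medians of -0.19 and 0.09 could not change there, because the tfap2B libraries enter the spread but not this difference.

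The genes called above and below input differed in RNA level and surroundings. The 43 genes above input had a median HH10 level of 15.5 TPM (transcript abundance scaled for gene length and depth). Of the 43, 31 (72.1%) reached 1 TPM and 12 had 0 counts. The 49 below input had a median of 0.039 TPM, 18 (36.7%) reached 1 TPM and 23 had 0 counts. Over all 4757 genes the same calls had medians of 7.34 TPM for the 1131 above input and 3.44 TPM for the 842 below. Of these, 64.4% and 58.4% reached 1 TPM. Among the 43 were 24 of the 81 genes taken at the tie, whose median was 13.2 TPM. Among the 49 were 9 genes between 73 and 79 Mb on chromosome Z, all with 0 counts. The territory was a median of 99.8 kb for the 43 genes and 49.3 kb for the 49, against 64.6 and 21.3 kb for the same calls over all genes. No test was made of these differences, because the RNA is 1 library.

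**Figure D2:**
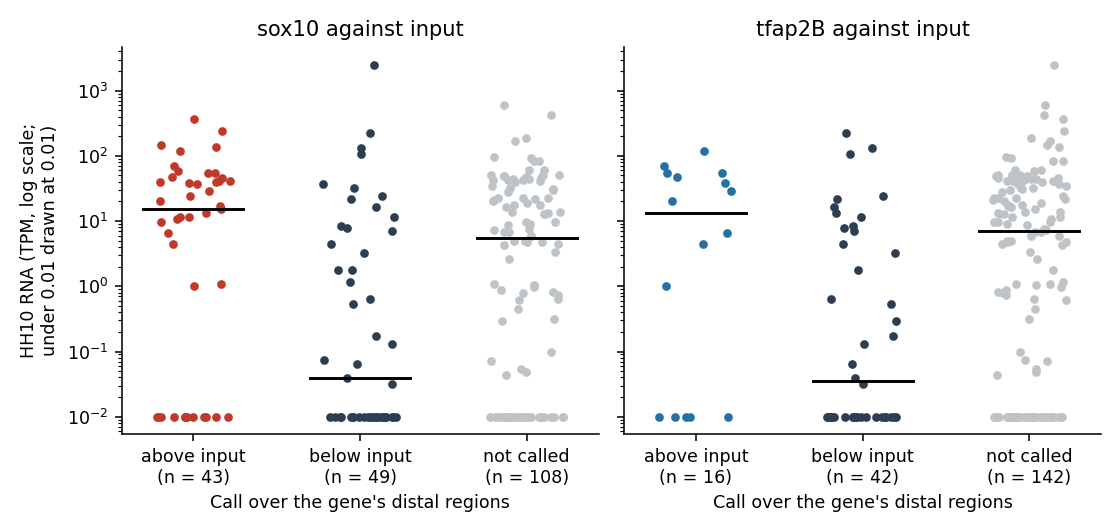
HH10 RNA level of the 200 genes (TPM on a log scale, vertical axis) by the call over their distal regions against input, for sox10 (left) and tfap2B (right). Each point is a gene, black lines are medians and values under 0.01 TPM, 0 counts included, are drawn at 0.01. The median was 15.5 TPM for genes above input for sox10 and 0.039 TPM for genes below.

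The locus with the largest difference above input for sox10 was that of ENSGALG00000037717 at chr18:8934258-8973228 on the minus strand. Its 4 distal regions, all intronic, averaged 312 and 380 scaled reads in sox10 and 98.4 and 100 in tfap2B, against 4.86 and 2.27 in the inputs. Both factors lay above both inputs without overlap, and sox10 lay above tfap2B. The log2 difference of sox10 from input was 6.30 ± 0.69 (SE, n = 2 libraries each, limma adjusted p = 0.000886 over all genes). A region lay 4.75 kb downstream of the TSS inside the gene, and 3 lay 14.5, 16.3 and 20.1 kb upstream inside another gene. The region 16.3 kb upstream had 431 and 445 scaled reads in sox10 and 76.1 and 95.8 in tfap2B, against 0.695 and 2.54 in the inputs, where these stand for 1 and 7 reads. With inputs at so few reads the size of the log2 difference depends on the pseudocount of 1. The gene had 69.8 TPM at HH10.

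The locus of ENSGALG00000011555 at chr3:44237944-44375114 was next. Its 3 regions averaged 159 and 216 scaled reads in sox10 and 106 and 87.5 in tfap2B, against 3.47 and 0.363 in the inputs. The log2 difference of sox10 from input was 6.24 ± 0.83 (SE, limma adjusted p = 0.00193 over all genes). The regions differed in how far the factors lay apart. The intergenic region 36.2 kb upstream had 177 and 180 scaled reads in sox10 and 286 and 162 in tfap2B, so the factors overlapped there. In contrast, the intronic region 33.9 kb downstream had 144 and 206 in sox10 and 27.7 and 45.8 in tfap2B. At HH10 the gene had 46.9 TPM.

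A further 3 loci completed the 5 with the largest differences above input for sox10. At chr11:18186088-18218511, with 149 TPM at HH10, the mean over 3 regions was 230 and 311 scaled reads in sox10 and 19.99 and 56.9 in tfap2B, against 8.34 and 0.363 in the inputs. At chr7:14373277-14404802, with 239 TPM, the mean over 4 intergenic regions was 197 and 307 in sox10 and 27.97 and 108 in tfap2B, against 10.9 and 1.27 in the inputs. At chr1:65890900-65891943, a gene with 0 counts at HH10, it was 254 and 318 in sox10 and 23.9 and 69.8 in tfap2B, against 14.6 and 1.72 in the inputs. In all 3 the sox10 libraries lay above the tfap2B libraries and the inputs without overlap. Without sox10 replicate 2 the loci on chromosomes 7 and 1 were no longer called against input, with limma adjusted p of 0.0685 and 0.0638.

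The loci furthest below input were led by ENSGALG00000031532 at chr20:4294876-4299966, a gene with 0 counts. Its 4 intergenic regions averaged 79.3 and 77.2 scaled reads in sox10 and 59.5 and 71.3 in tfap2B, against 1497 and 398 in the inputs. The sox10 log2 difference was -3.29 ± 0.63 (SE, limma adjusted p = 0.00758 over all genes). All 4 regions were called below input for both factors, and they lay 62.8 to 77.1 kb downstream of the TSS. The locus of ENSGALG00000032731 at chr1:101072266-101072676, also with 0 counts, had 5 regions inside another gene. They averaged 105 and 108 scaled reads in sox10 and 85.0 and 122 in tfap2B, against 1331 and 786 in the inputs, with a sox10 log2 difference of -3.25 ± 0.40 (SE, limma adjusted p = 0.00146). In both loci the pull-downs lay between the 10th and 90th percentiles of the 200 genes and the inputs above the 90th. The other 3 of the 5 lowest lay at chr2:287143-294669, chrZ:18306-19385 and chr5:51898823-51911235, with sox10 log2 differences of -2.88, -2.60 and -2.52.

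**Figure D3:**
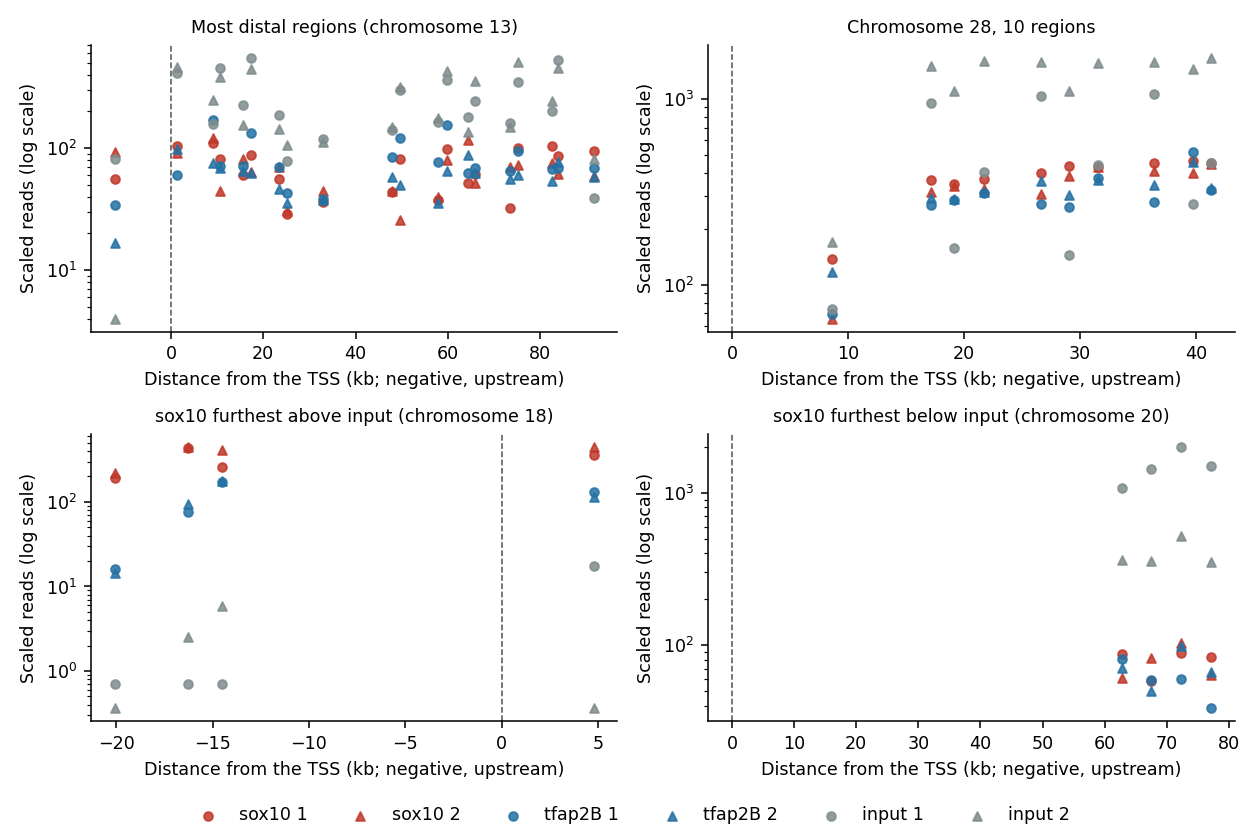
Scaled reads (log scale, vertical axis) of each distal region by its distance from the TSS (horizontal axis, negative is upstream) at 4 of the loci, in the 2 sox10, 2 tfap2B and 2 input libraries. Each point is a region in a library. The inputs lie above the pull-downs over most regions of the chromosome 13 locus and all regions of the chromosome 20 locus, below them at the chromosome 18 locus, and on both sides of them at the chromosome 28 locus.

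Against input, the tfap2B pull-downs were higher over the distal regions of 16 of the 200 genes (8.0%) and lower over those of 42 (21.0%). Of the 16, 8 were among the 81 genes taken at the tie, as were 6 of the 42. The 138 left outside at the tie had 4 above and 45 below. Over all 4757 genes 15.5% were higher and 13.1% lower. The median log2 difference was -0.25 for the 200 genes and 0.13 for all 4757. Total reads gave 38 of the 200 genes above and 14 below input, with medians of 0.55 and 0.93. DESeq2 size factors gave 25 and 25, with medians of 0.11 and 0.48. Of all 4757 genes, total reads put 23.9% above and 4.52% below input, and DESeq2 size factors 17.99% and 7.32%. The share of the 200 genes was thus larger below input and smaller above it than that of all genes under both scalings. With the median over a gene's regions in place of the mean, the share of the 200 genes above input was close to the 15.9% of all genes. The median log2 differences were then -0.01 for the 200 genes and 0.16 for all. The calls moved with single libraries. Both numbers fell without any 1 of the pull-downs, and the number above input rose without either input. Without tfap2B replicate 1 the median log2 difference was -0.37 for the 200 genes and 0.05 for all 4757. Without tfap2B replicate 2 it was -0.20 and 0.29. Without input replicate 1 it was -0.58 and -0.28, and without input replicate 2 it was -0.11 and 0.30. Leaving out either sox10 replicate could not change the medians, because the sox10 libraries do not enter this difference. The 16 genes above input had a median of 13.4 TPM at HH10 and a median territory of 107 kb, and the 42 below had 0.035 TPM and 52.6 kb. Over all 4757 genes the 736 above had medians of 7.54 TPM and 60.4 kb, and the 624 below 1.14 TPM and 19.5 kb. The sox10 and tfap2B comparisons share the 2 inputs and are given side by side for that reason, with no overlap counted between them.

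The largest tfap2B differences above input were at the chromosome 3 and chromosome 18 loci given above, with log2 differences of 5.30 ± 0.83 and 4.52 ± 0.69 (SE). They were followed by chr1:175340869-175397791 with 4.37 ± 1.22, chr1:177225439-177226451 with 4.0 ± 0.92 and chr4:19424229-19426802 with 3.82 ± 0.78. The locus on chromosome 4 had the highest tfap2B values of the 5. Its 3 intergenic regions averaged 525 and 669 scaled reads in sox10 and 613 and 637 in tfap2B, against 109 and 16.9 in the inputs, so the factors did not separate there. Of these 5 calls, only that on chromosome 3 was kept in every one of the single-library omissions. The largest differences below input were at the chromosome 20 and chromosome 1 loci given above, at -3.55 ± 0.63 and -3.31 ± 0.40, and then at chrZ:74854533-74855450 with -2.99 ± 0.54, chrZ:73650176-73844276 with -2.91 ± 0.39 and chr2:287143-294669 with -2.75 ± 0.44 (SE). The Z locus starting at 74854533 had 97.6 and 85.4 scaled reads in sox10 and 57.5 and 63.5 in tfap2B, against 796 and 299 in the inputs. The Z locus starting at 73650176 had 130 and 106 in sox10 and 87.0 and 90.1 in tfap2B, against 860 and 524 in the inputs. Neither gene had a count at HH10.

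The sox10 pull-downs were higher than the tfap2B pull-downs over the distal regions of 15 of the 200 genes (7.5%) and lower over 0. Over all 4757 genes 14% were higher and 0.631% lower, so the share of the 200 genes was below the background. This fit held the 4 pull-downs and no input. The median log2 difference was 0.19 for the 200 genes and 0.10 for all 4757. On recovered reads, edgeR's quasi-likelihood test called 26 of the 200 genes higher and 3 lower, against 14.5% and 2.54% of all genes. Under that test the share higher was thus close to the background. With the inputs kept in the fit limma called 0 in either direction, also over all 4757 genes. The number called higher fell without either sox10 replicate and rose without either tfap2B replicate. Without sox10 replicates 1 and 2 in turn the median log2 difference was 0.21 and 0.16 for the 200 genes, against 0.13 and 0.11 for all. Without tfap2B replicates 1 and 2 in turn it was 0.17 and 0.22, against 0.14 and 0.06.

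The largest of these differences was at the chromosome 11 locus of ENSGALG00000005845, given above, where sox10 exceeded tfap2B by 2.95 ± 0.53 on the log2 scale (SE, n = 2 libraries each, limma adjusted p = 0.0104). Its 3 regions, 2 in the gene's introns and 1 lying 2.48 kb upstream, had between 209 and 344 scaled reads in sox10 and between 4.47 and 77.1 in tfap2B. The gene with 0 counts on chromosome 1, ENSGALG00000046127, followed at 2.76 ± 0.52 (limma adjusted p = 0.0115). Then came chr3:24652522-24668915 with 2.18 ± 0.44, chr10:19501916-19520583 with 2.16 ± 0.31 and the chromosome 7 locus with 2.13 ± 0.60 (SE). The chromosome 3 locus differed from the other 4 in its inputs. It had 135 and 149 scaled reads in sox10 and 29.1 and 32.3 in tfap2B, against 82.7 and 21.8 in the inputs. The 15 genes had a median of 10.6 TPM at HH10, against 8.24 TPM for the same call over all genes, and 0 lay on Z, against 3.46%.

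Of the 20 genes with the most regions, 14 had both inputs above all 4 pull-downs under the deposited scaling and 3 had both below, while fewer passed the test. Over all 200 genes these counts were 84 (42.0%) and 56 (28%), and over the 4757 genes 28.9% and 29.0%. Among the 20, 6 were called below input for sox10 and 3 above, and 4 below and 1 above for tfap2B. Of the 20, 8 had 0 counts at HH10 and 7 reached 1 TPM.

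**Figure D4:**
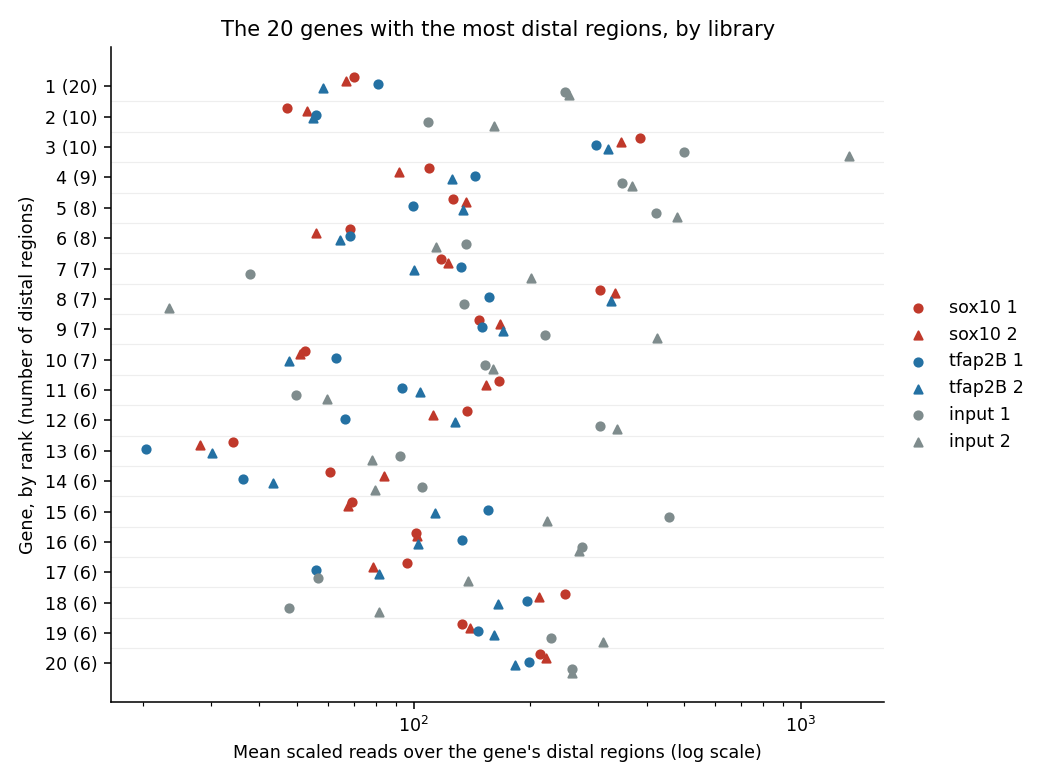
Mean scaled reads over the distal regions (log scale, horizontal axis) of the 20 genes with the most distal regions, by rank with the number of regions in parentheses (vertical axis). Red symbols are sox10 libraries, blue tfap2B and grey input, with circles for replicate 1 and triangles for replicate 2. In 14 of the 20 genes both inputs lie right of all 4 pull-downs.

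The gene with the most regions lay at chr13:704847-869303 on the minus strand and had 20, of which 10 were exonic, 9 intronic and 1 intergenic. The mean over them was 70.3 and 66.8 scaled reads in sox10 and 81.0 and 58.4 in tfap2B, against 245 and 252 in the inputs. All 4 pull-downs lay below both inputs, with a sox10 log2 difference of -1.84 ± 0.46 (SE, limma adjusted p = 0.0193) and a tfap2B difference of -1.84 ± 0.46 (limma adjusted p = 0.0270). Of the 20 regions, 9 were called below input for sox10, 8 for tfap2B and 0 above. The region with the highest mean over the pull-downs, at chr13:859878-860378 in an exon, had 111 and 122 scaled reads in sox10 and 171 and 75.0 in tfap2B, against 156 and 246 in the inputs, where tfap2B and input overlapped. The gene had 0.04 TPM, from 10 counts.

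Next came chr13:551834-568795 and chr28:30057-39832, with 10 regions each. The first had 47.0 and 53.1 scaled reads in sox10 and 55.9 and 55.0 in tfap2B, against 109 and 161 in the inputs, and was called for neither factor. The gene on chromosome 28 had 385 and 342 in sox10 and 296 and 318 in tfap2B, against 499 and 1331 in the inputs, and 17.5 TPM at HH10. Its sox10 values were the highest of the 20 genes, and its inputs lay far apart. It was called for neither factor.

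The gene at chr1:112393549-112409925 had 9 regions, 8 of them upstream, with 110 and 91.8 scaled reads in sox10 and 144 and 126 in tfap2B, against 344 and 366 in the inputs. The gene at chr18:67439-70197 had 8 intergenic regions, all downstream, with 126 and 137 in sox10 and 99.7 and 134 in tfap2B, against 421 and 479 in the inputs. Both were called below input for both factors, and they had 24.4 and 107 TPM at HH10. The chromosome 18 locus mixed regions of both directions. Its region at chr18:9005-9505 had 242 and 311 scaled reads in sox10 and 123 and 167 in tfap2B, against 43.1 and 3.63 in the inputs, and was called above input for both factors, whereas 4 others of the 8 were called below.

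Of the other genes among the 20, 3 were called above input for sox10. They lay at chr11:74227-75154 with 7 regions, where sox10 had 302 and 330 scaled reads and tfap2B 156 and 324, against 135 and 23.4 in the inputs, at chr15:12661721-12714319 with 6 regions, where sox10 had 166 and 154 and tfap2B 93.5 and 104, against 49.8 and 59.7 in the inputs, and at chr6:3440189-3641724 with 6 regions, where sox10 had 246 and 211 and tfap2B 196 and 165, against 47.6 and 81.5 in the inputs. The sox10 libraries lay above both inputs in all 3. Only the chromosome 6 gene was also called above input for tfap2B. The HH10 levels of these genes were 0, 39.9 and 1.01 TPM.

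The median difference from input was lowest in the genes with 5 or more regions. The share of genes called below input moved with single libraries, with the scaling and with how regions were averaged. Among genes with 1, 2, 3, 4 and 5 or more regions (n = 3599, 819, 219, 74 and 46), 16.4%, 18.8%, 25.1%, 31.1% and 41.3% were below input for sox10 and 24.7%, 22.2%, 18.3%, 18.9% and 13% above. For tfap2B 11.4%, 15.4%, 23.3%, 27.0% and 34.8% were below. The median sox10 log2 difference was 0.11, 0.19, -0.01, -0.55 and -1.22 in the same order. Under total reads the sox10 medians were 0.86, 0.94, 0.75, 0.20 and -0.46, and under DESeq2 size factors 0.59, 0.68, 0.48, -0.07 and -0.74. The genes with 5 or more regions were lowest under each scaling. A scaling shifts the log2 differences of all genes by nearly the same amount, so this order could hardly change. The share below input was not highest in that class under total reads or DESeq2 size factors. It was 4.97%, 6.23%, 10.0%, 9.46% and 6.52% under total reads and 8.22%, 9.89%, 13.2%, 16.2% and 8.70% under DESeq2 size factors. Without sox10 replicate 1 it was 4.53%, 4.40%, 9.13%, 9.46% and 4.35% for sox10, and without sox10 replicate 2 it was 2.86%, 3.66%, 5.02%, 6.76% and 4.35%. For tfap2B it was 3.06%, 3.42%, 6.85%, 6.76% and 2.17% without tfap2B replicate 1, and the class with 5 or more regions had 8.70% without tfap2B replicate 2 and 15.2% without either sox10 replicate. The sox10 median of that class stayed between -1.22 and -1.10 when each library was left out in turn. With the median over a gene's regions in place of the mean, 16.3%, 18.2%, 21.5%, 28.4% and 30.4% were below input for sox10. The shares above were then 24.8%, 21.7%, 21.9%, 20.3% and 21.7%, and the median differences 0.11, 0.19, 0.25, -0.45 and -1.02. For tfap2B 11.1%, 15.1%, 18.3%, 24.3% and 28.3% were then below. The number of regions chose the 200 genes and the genes in these classes share libraries, so these values are a description.

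**Figure D5:**
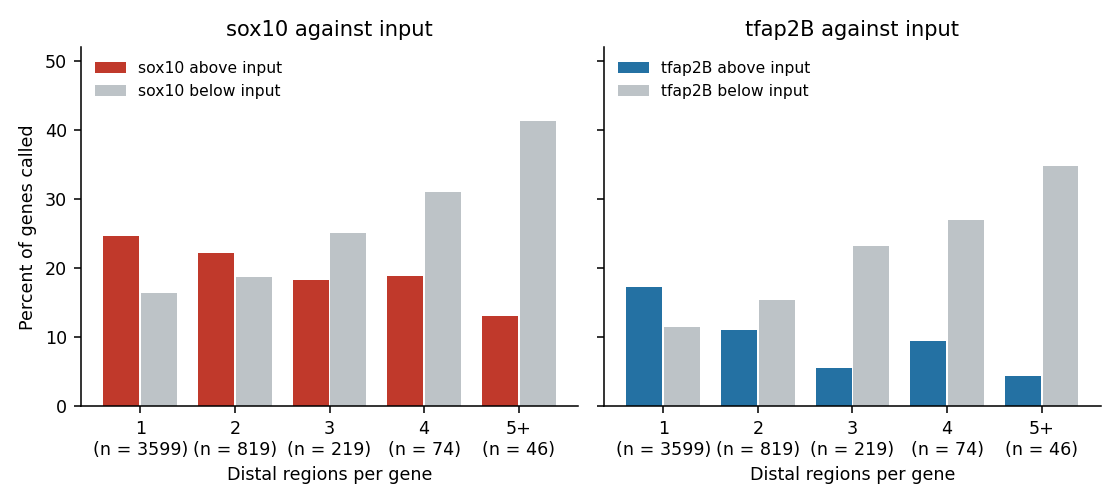
Percent of genes called above input (coloured bars) and below input (grey bars), on the vertical axis, by the number of distal regions per gene (horizontal axis), for sox10 (left) and tfap2B (right). With all 6 libraries the share below input was 16.4% of genes with 1 region and 41.3% of genes with 5 or more for sox10, and 11.4% and 34.8% for tfap2B. These shares were 4.53% and 4.35% for sox10 without sox10 replicate 1, and 3.06% and 2.17% for tfap2B without tfap2B replicate 1. With the median over a gene's regions they were 16.3% and 30.4% for sox10 and 11.1% and 28.3% for tfap2B.

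The HH10 level and the territory also moved with the number of regions. Over the same 5 classes the median level was 6.54, 5.36, 2.67, 0.74 and 0.016 TPM, and 64.5%, 60.7%, 55.3%, 47.3% and 32.6% of genes reached 1 TPM. The median territory was 39.1, 58.3, 62.7, 78.6 and 76.3 kb. Their part in the calls was not tested.

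The tie at 3 regions set part of what the 200 genes look like. The 81 genes with 3 regions that were taken had a median of 13.2 TPM and a median territory of 90.7 kb, and 24 were above and 7 below input for sox10. The 138 with 3 regions that were left outside had a median of 0.25 TPM and 56.7 kb, and 16 were above and 48 below. Of the 81, 7 lay on Z, and of the 138, 30. The genes just inside and just outside the boundary thus had the same number of regions and differed in level, territory and calls, with the gene identifier as the sole difference in the rule.

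Over all 200 genes the median HH10 level was 4.50 TPM, against 5.85 TPM for the 4757 genes with a distal region and 6.80 TPM for all placed genes. A total of 113 (56.5%) reached 1 TPM, against 62.8% and 62.7%, and 64 (32.0%) had 0 counts. For the 119 genes with at least 4 regions, which no tie affects, the median was 0.073 TPM and 41.2% reached 1 TPM. The highest level was 2477 TPM at chr22:4658892-4660769, with a 95% exact Poisson interval of 2447 to 2506 that covers counting error only. That gene had 4 regions with 88.9 and 83.6 scaled reads in sox10 and 157 and 112 in tfap2B, against 303 and 178 in the inputs, and was called below input for sox10. The next were chr1:2002525-2187486 with 593 TPM, chrZ:9801318-9816323 with 428 TPM and chr1:34203987-34308540 with 368 TPM. The chromosome 1 gene with 593 TPM had 7 regions, with 118 and 122 scaled reads in sox10 and 133 and 100 in tfap2B, against 37.9 and 201 in the inputs, and was called for neither factor. High RNA levels therefore occurred with loci above input, below it and not called.

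Region by region, sox10 was above input in 184 of the 819 regions (22.5%) and below in 180 (22.0%), and tfap2B in 127 (15.5%) and 153 (18.7%). The limma fit ran over all 25281 regions with enough reads, and all 819 were among them. Over all assigned distal regions 24.5% were above and 16.7% below input for sox10 and 16.9% and 12.7% for tfap2B. Over all regions tested these were 18.4% and 22.3% for sox10 and 10.8% and 17.4% for tfap2B. The median log2 differences of the 819 regions were -0.33 for sox10 and -0.27 for tfap2B, against 0.02 and 0.16 over all assigned distal regions. Total reads gave 72 of the 819 below input for sox10 and 58 for tfap2B. Over all regions tested it gave 9.69% and 8.53%, and both shares of the 819 lay under these. DESeq2 size factors put 10.9% and 10.3% of all regions tested below input, and edgeR 11.5% and 9.51%. The shares of the 819 lay above these. Shares over all assigned distal regions under these alternatives are not given here. Both inputs lay below all 4 pull-downs in 232 of the 819 (28.3%) and above them in 314 (38.3%), against 29.5% and 29.8% of all assigned distal regions.

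Among the 819, regions above and below input lay in different places. The places of the same calls over all assigned distal regions are not given here, so this need not be particular to these genes. The 184 above input for sox10 were 67.4% intergenic and 3.26% exonic and lay a median of 23.5 kb from the TSS. The 180 below were 45.6% intergenic and 21.1% exonic and lay 11.6 kb away. The 184 had medians of 218 and 257 scaled reads in sox10 and 75.6 and 97.9 in tfap2B, against 10.4 and 2.18 in the inputs, which stand for 15 and 6 reads. The 180 had 97.3 and 84.2 in sox10 and 91.7 and 101 in tfap2B, against 489 and 383 in the inputs. A total of 36 of the 819 (4.40%) had at most 3 reads in both inputs, against 6.30% of all assigned distal regions. All 36 were called above input for sox10 and 30 for tfap2B, which inputs this low make likely in advance.

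Regions of a gene varied among themselves as well as between genes. The share of the variance in the sox10 log2 difference that lay between genes was 0.40 among the 819 regions and 0.34 among the regions of the 958 other genes with at least 2. For tfap2B the shares were 0.42 and 0.37. Neighbouring regions of a locus share sequence context and library, and no test was made.

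Regions to name were called, did not overlap between groups and had a mean at or above the median of all regions. The 5 of them with the largest sox10 differences above input had 1 or 7 reads in each input. At chr1:80667859-80668359 sox10 had 538 and 590 scaled reads and tfap2B 41.2 and 77.1, against 1 read in each input. At chr15:6168406-6168906, in an intron, sox10 had 513 and 449 and tfap2B 86.8 and 131, again against 1 read in each input. At chrZ:24821514-24822014 sox10 had 147 and 669 and tfap2B 268 and 412, against 1 read in each input, and the 2 factors overlapped. The region on Z had the largest tfap2B difference above input among them, at 7.78 ± 0.91 on the log2 scale (SE). Among those furthest below input, chr3:105038301-105038801 in an exon had 46.9 and 25.7 in sox10 and 82.3 and 87.5 in tfap2B, against 955 and 414 in the inputs, and chrZ:75007009-75007509 in an intron had 61.3 and 72.5 in sox10 and 14.3 and 41.6 in tfap2B, against 1280 and 410 in the inputs.

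Between the factors, 44 of the 819 regions (5.37%) in 32 genes were higher for sox10 than for tfap2B and 0 were lower, against 8.0% and 0.108% of all assigned distal regions and 2.47% and 0.103% of all regions tested. A total of 146 reached an unadjusted limma p under 0.05 in either direction. Medians over the 44 regions were 252 and 312 scaled reads in the sox10 replicates and 43.8 and 53.1 in those of tfap2B, against 2.43 and 0.363 in the inputs. They were 25 intergenic, 18 intronic and 1 exonic. The largest difference was at the chromosome 1 region starting at 80667859, at 3.30 ± 0.40 on the log2 scale (SE, limma adjusted p = 0.0202), followed by chr2:89507336-89507836 at 3.27 ± 0.37. With the inputs in the fit 0 regions were called.

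Regions within 1 kb of a TSS played no part in choosing the genes. A total of 61 of the 200 genes (30.5%) had such a promoter region, against 28.7% of the 4757, and they had 64 in all. For sox10 1 of the 64 was above input and 12 below, and for tfap2B 1 was above and 11 below. Over all placed promoter regions 2.34% were above and 16% below input for sox10 and 2.56% and 7.23% for tfap2B. The medians of the 64 were -1.18 and -0.66, against -0.69 and -0.27 over all promoter regions. Sox10 was higher than tfap2B in 0 of the 64 and lower in 1, against 0.25% and 0.0884% of all promoter regions. With DESeq2 size factors 4 were below input for sox10 and 6 for tfap2B. Over all regions tested the shares below input fell as well, from 22.3% to 10.9% for sox10 and from 17.4% to 10.3% for tfap2B. The share of all promoter regions under that scaling is not given here, so the lower counts are not a result about the 64.

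The promoter region above input for both factors was at chr11:2730238-2730738. It had 298 and 381 scaled reads in sox10 and 156 and 296 in tfap2B, against 49.3 and 1.45 in the inputs. The 2 inputs differed widely there. The region lower in sox10 than in tfap2B was at chr16:613999-614499, with 80.5 and 63.2 in sox10 and 451 and 279 in tfap2B, against 1422 and 524 in the inputs. There sox10, tfap2B and input did not overlap.

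Chromosome Z held 27 of the 200 genes, and 13 of them (48.1%) were below input for sox10 and 13 for tfap2B, against 29.5% and 30.2% of the 430 Z genes with a distal region. Away from Z 20.8% of the other 173 genes were below input for sox10, against 16.5% of all genes away from Z. Of the 27, 2 (7.41%) were above input for sox10 and 2 for tfap2B, against 12.6% and 9.07% of all Z genes with a distal region. The 27 had medians of 102 and 88.9 scaled reads in sox10 and 76.7 and 90.6 in tfap2B, against 126 and 165 in the inputs. Of the 27, 9 lay between 73 and 79 Mb, a stretch chosen after its values were seen, and all 9 were below input for both factors. Of the 18 elsewhere on Z, 4 were below input and 2 above for each factor. The embryos' sex is not given in the labels, so the copy number of Z in the pooled cells is not known here. Its part in these calls was not tested.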

How the data were processed

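The series holds 2 sox10 pull-downs, 2 tfap2B pull-downs and 2 inputs at HH18 and 1 RNA library at HH10. Bowtie, DiffBind, DESeq2, featureCounts, Subread 1.4.5 and STAR 2.4.2a are listed without roles, and galGal5 as the build, per the submitters' processing notes. The sources used here do not give how regions were called. Values of the deposited chromatin table are a signal: 100% of values were whole multiples, within 0.01 read, of 1 constant per library, whose choice by the authors no source used here gives. It lists 25469 regions, 13888 of them placed. Coordinates follow the table, and the sources do not say whether starts count from 0 or 1. The deposited gene table holds raw counts per gene, per the file headers. Its HH10 column is present 2 times, identical throughout, and entered once. A further 21 columns, from other samples, stayed unused. TPM was computed from counts and gene length. No source used here states whether counting used strand, so reads of overlapping antisense genes cannot be separated.

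Regions were assigned by their midpoint, with 1 TSS per gene, and a gene's value in a library is the mean over its distal regions. A territory is the stretch nearer to a TSS than to any other, over 1 kb from every TSS and within 100 kb. The main test was limma 3.58.1 with a trend on log2(scaled reads + 1), run over all 25281 regions that filterByExpr of edgeR 4.0.16 kept on recovered reads (188 removed) and over all 4757 genes. Against input it held all 6 libraries, with 3 residual degrees of freedom. Between the factors it held the 4 pull-downs, with 2. Alternatives were total reads, DESeq2 1.42.0 size factors, a pseudocount of 10, no filter, edgeR, a replicate block, other libraries in the fit, leaving out each library, the median over regions and other choices of genes. The fits were tested on simulated data. Groups and replicate numbers come from the sample titles.

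The genes, lists, tests and alternatives were chosen with earlier results of these data known, the fit without inputs among them. Lists with at least 4 and at least 3 regions, and the promoter regions under each alternative, were added after seeing the data. Gene lists and cell type markers by symbol could not be used. Named by rule were the 20 genes with the most regions, per comparison and direction the 5 called genes and 5 called regions with the largest difference and no overlap between libraries (regions with a mean at or above the median of all), the 5 genes with the highest HH10 level and the strongest pull-down region of each of the 5 genes with the most regions. Gene identifiers were limited to 2 per comparison and direction.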

Additional observations from a re-analysis of the deposited data

How the results depend on the processing

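Counts of calls moved by more than 1.5 times under these alternatives. Total reads gave 11 genes below input for sox10, and 38 above and 14 below for tfap2B. It gave 72 and 58 regions below input for sox10 and tfap2B, and 3 promoter regions above and 3 below for sox10 and 2 above and 3 below for tfap2B. DESeq2 size factors gave 19 genes below input for sox10, 25 above and 25 below for tfap2B, and 23 higher for sox10 than tfap2B. They gave 98 and 101 regions below input, and 2 promoter regions above and 4 below for sox10 and 2 above and 6 below for tfap2B. The edgeR test gave 100 and 82 regions below input, 0 promoter regions above input for either factor, 4 and 5 below, and 26 genes higher and 3 lower for sox10 than tfap2B. A pseudocount of 10 gave 2 promoter regions above input for either factor. With only the 2 groups compared, 28 genes were above input for sox10, and 6 above and 27 below for tfap2B, with 72 regions above and 0 promoter regions above and 7 below. With all 6 libraries, 0 genes, regions or promoter regions were called between the factors. The median over regions put 30 genes above input for tfap2B, close to the share of all genes, 15.9%. A window of 50 kb, which kept 147 of the 200 genes, put 23 above input for sox10 and 8 for tfap2B and 1 lower for sox10 than tfap2B. Its median territory was 56.7 kb, and that of the genes with most regions per kb, 65 of them shared, was 29.4 kb. For genes with at least 4 regions the median HH10 level was 0.073 TPM and 41.2% reached 1 TPM, and 5 genes and 20 regions were higher for sox10 than tfap2B. With at least 3 regions, 1 gene and 3 regions were lower. The cause was not tested, except that the 50 kb window and the lists change the genes counted. No named difference changed direction, but the median log2 difference of the 200 genes changed sign. For sox10 it was -0.19 as reported, 0.56 under total reads, 0.29 under DESeq2 size factors, 0.26 with the median over regions and 0.06 without input replicate 2, and for tfap2B -0.25, against 0.55 under total reads and 0.11 under DESeq2 size factors. The sox10 balance turned from more genes below input, 43 above and 49 below, to 58 above and 11 below under total reads and 58 and 19 under DESeq2 size factors.

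Leaving out each library in turn gave 5 to 60 genes above and 8 to 65 below input for sox10, 2 to 41 and 8 to 52 for tfap2B, and 0 to 32 higher and 0 to 6 lower for sox10 than tfap2B. For regions the ranges were 33 to 261 and 6 to 294 for sox10, 0 to 227 and 0 to 254 for tfap2B, and 0 to 162 and 0 to 74 between the factors. For promoter regions they were 0 to 7 and 0 to 35, 0 to 8 and 0 to 21, and 0 to 5 and 0 to 14. For the named genes and regions, the call was kept in 219 and lost in 61 pairings of a result with a left-out library, 0 of these 61 when an input was left out. It was kept in 407 and lost in 15 pairings with another alternative, 10 of these 15 with all 6 libraries in the fit. Where an omission left a group with 1 library, that library is assumed to vary like the others. With an input left out the spread came from the pull-downs alone. The difference between the 2 inputs then no longer counted against a call, so calls kept there do not show that the inputs agree. Regions with 1 read in both inputs limit the size of a difference, since a listed 1 can stand for 0.

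The replicate numbers in the titles gave 2 pairs. The correlation of replicate deviations was 0.049 between sox10 and tfap2B, -0.032 between sox10 and input and -0.266 between tfap2B and input. Whether same-numbered libraries were prepared together is not given in the labels, and these correlations cannot settle it. With the replicate block, 83 regions were higher and 3 lower for sox10 than tfap2B, 1 gene was lower, and 0 promoter regions were above input for tfap2B, and the other counts stayed within 1.5 times.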

Other observations

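A stretch of chromosome Z held many of the genes below input. Between 73 and 79 Mb on Z lay 9 of the 200 genes, with 39 distal regions, and this stretch was chosen after its values were seen. All 9 had 0 counts at HH10 and were called below input for both factors, with sox10 log2 differences from -2.51 to -1.46 and tfap2B differences from -2.99 to -1.82. The means over their regions ranged from 57.1 to 130 and from 54.4 to 106 scaled reads in sox10 and from 45.0 to 87.0 and from 46.3 to 113 in tfap2B, against 288 to 860 and 165 to 524 in the inputs. Of all 112 genes with a distal region in the stretch, 100 had 0 counts, 88 were below input for sox10 and 93 for tfap2B, and 0 were above for either. Of the 18 other Z genes among the 200, 4 were below and 2 above input for sox10.

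Regular spacing was seen at 3 loci, also noticed after the values were seen. At the chromosome 28 gene with 10 regions, 9 intergenic regions followed each other downstream from 17.2 to 41.3 kb from the TSS, and most lay 9.42 to 9.87 kb from the region 3 places further on, with an exception of 10.7 kb. In input replicate 1 the values repeated along the row, at 945, 158 and 403, then 1034, 145 and 438, then 1066, 273 and 454 scaled reads. In input replicate 2 they were 1509, 1104 and 1603, then 1582, 1098 and 1561, then 1576, 1441 and 1669. The sox10 and tfap2B values stayed between 261 and 515 over these 9 regions. At the chromosome 20 locus furthest below input the 4 regions started 4.79, 4.80 and 4.72 kb apart. At the chromosome 13 gene with 20 regions, short steps of 1.38 to 1.95 kb alternated with longer ones of 4.55 to 8.23 kb over most of its length.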
